A study of Mus musculus with 8 samples.

Results

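The messenger RNA of J1 mouse embryonic stem cells (ESCs) before differentiation, here ESC (day 0), was compared with that of the same line on day 4 of cardiac differentiation, here MES. The genes described are the 21936 genes that the deposited tables class as protein-coding, out of 55487 genes of every biotype, and 15271 of them passed edgeR's filter on low counts and entered the test with 20071 genes in all. The study sequenced RNA depleted of ribosomal RNA from 8 strand-specific libraries, 2 biological replicates each of ESC, MES, cardiac progenitors (CP, day 6) and cardiomyocytes (CM, day 10). The ESC cells, strain 129S4/SvJae, were grown undifferentiated on gelatin with KnockOut Serum Replacement and leukaemia inhibitory factor (LIF), and are labelled untreated. The MES cells had been aggregated into embryoid bodies in hanging drops, plated after 2 days, and kept in medium with fetal bovine serum, for which no LIF is listed, and with 1 mM ascorbic acid. All libraries came from this 1 line, and the loss of LIF, the serum, the aggregation, the ascorbic acid and the 4 days of culture changed together, so that their parts in any difference cannot be told apart.

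Naive pluripotent cells in LIF hold a network of transcription factors around *Pou5f1* (Oct4), *Sox2* and *Nanog* that keeps genes for the 3 germ layers silent while it keeps the cells self-renewing. When LIF is withdrawn and the cells are aggregated, they pass through a formative, epiblast-like state and then, under Wnt, Nodal, BMP and FGF signals, through an equivalent of the primitive streak, whose cells give rise to mesoderm and definitive endoderm. The first mesoderm to leave the streak in the embryo is extraembryonic and lateral, the source of primitive blood, endothelium and heart. All values below are from bulk RNA, in which fewer cells of a type and less RNA per cell cannot be told apart.

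The 4 libraries of ESC and MES held between 18046063 and 19220169 counts, of which 96.3% to 96.7% lay on protein-coding genes, and the number of protein-coding genes at 1 TPM (a level scaled for gene length and library total) or more was 12665 and 12699 in ESC and 12733 and 12994 in MES. A gene was called higher or lower when the adjusted p of edgeR's quasi-likelihood test was under 0.05 and the fitted fold change was above 2 or under 0.5. By this rule 2860 genes (18.7% of those tested) were higher in MES and 2382 (15.6%) were lower, and together they made up 34.3%. These percentages are the background against which the counts of each gene list are read. The log2 fold changes of all genes tested had a median of -0.01 and quartiles of -0.63 and 0.77. The CPM (counts scaled to the library total and edgeR's trimmed-mean factor) of the ESC libraries did not overlap those of the MES libraries at any called gene but 1. Nor did they overlap at 85.1% of the genes tested. A fitted fold is scaled by edgeR's trimmed means and therefore differs somewhat from the ratio of the TPM values printed beside it.

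Large changes were common in both directions. More than 16-fold rises were fitted for 544 called genes and more than 16-fold falls for 591, and 192 and 279 genes passed 64-fold. Of the called genes, 135 of those that rose had no count in either ESC library and 157 of those that fell had none in either MES library. Where a stage had no count of a gene, the fold is a lower bound that puts 3 counts in the place of that stage's sum, and where it had only 1 to 3 counts the ratio of the summed counts is given with an exact 95% interval. These bounds and intervals hold counting error alone, and p-values measure the spread between these samples. The genes that rose took 2.997% and 3.10% of the protein-coding TPM in ESC and 13.8% and 13.96% in MES. The genes that fell went the other way, from 14.2% and 14.4% to 4.39% and 4.60%. Most of the messenger RNA by amount therefore came, at both stages, from genes that were not called.

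**Figure D1:**
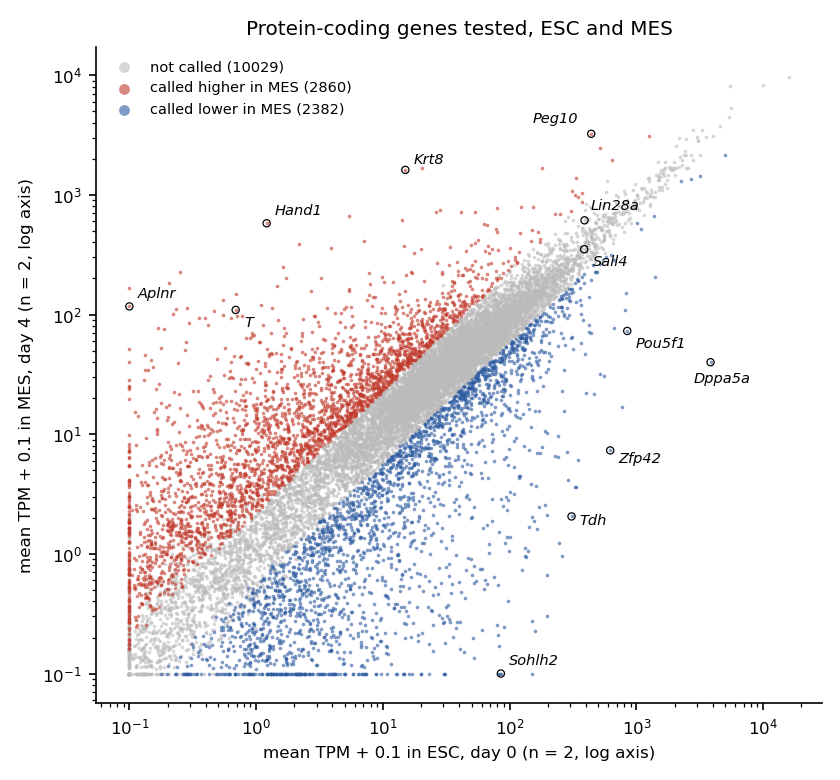
Mean level of the 15271 protein-coding genes tested in ESC (horizontal) and MES (vertical), as TPM + 0.1 on log axes with 2 libraries per stage, coloured by the call. Genes called higher (2860) and lower (2382) lie off a dense diagonal of uncalled genes, with *Krt8*, *Hand1* and *Aplnr* far above it and *Dppa5a*, *Zfp42* and *Sohlh2* far below.

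The stage labels were checked against short sets of defining markers. The 5 ESC markers summed to 2455 and 2430 TPM in ESC and to 118 and 156 TPM in MES, and all 5 fell. The 4 markers of nascent mesoderm summed to 5.33 and 4.48 TPM in ESC and 336 and 321 TPM in MES, and the 4 of lateral mesoderm rose from 3.61 and 5.205 TPM to 971 and 876 TPM, so the MES libraries carried the markers of their name. The sample labels also describe these cells as mESC-derived CM Day4, yet the 3 cardiomyocyte markers summed to only 5.66 and 7.05 TPM in MES. In ESC they summed to 0.902 and 0.873 TPM, and 2 of the 3 were called higher. The remaining marker, *Myh6*, the alpha cardiac myosin heavy chain, had 0.856 and 0.608 TPM in ESC and 0.343 and 0.527 TPM in MES. Markers of some other cell types were higher in the MES libraries as well. The 4 blood markers rose from 2.13 and 2.16 TPM to 192 and 357 TPM, and the 4 of smooth muscle and fibroblasts from 58.6 and 63.0 TPM to 1135 and 1160 TPM. The 4 visceral endoderm markers summed to 3.67 and 3.47 TPM in ESC and 19.6 and 37.5 TPM in MES. The 3 endothelial markers summed to more in ESC, 43.8 and 47.8 TPM, than in MES, 28.4 and 33.4 TPM, with 2 called higher and 1 lower. The 3 neural markers summed to 21.6 and 19.4 TPM in ESC and 0.0613 and 0.201 TPM in MES. The 3 trophoblast markers summed to 0 and 0 TPM in ESC and 0.0357 and 0.0709 TPM in MES, with 2 of them at 0 counts in MES.

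The regulators of naive pluripotency were lost. Of 12 naive factors tested, 11 fell and the remaining 1 was not called (median log2 fold change -5.34), and their summed level was 2247 and 2254 TPM in ESC and 254 and 231 TPM in MES. Among the core and general pluripotency genes 16 of 20 fell and the other 4 were not called (median log2 fold change -4.37). The promoters of 2 lost regulators, *Nanog* and *Zfp42*, and of 1 gained regulator, *Mesp1*, are shown here because they hold matches to motifs of the Oct4, Sox2 and T-box factors described below. The windows are the RefSeq promoters of GRCm38.p6, 250 bases before to 50 after the annotated start, written 5′ to 3′ on the strand of the gene. The promoter of *Nanog* (chr6:122707239-122707538, plus strand) holds the known composite site of Oct4 and Sox2, shown in capitals at -75 to -62 from the start (searched as TTTGCATNACAATG). That of *Zfp42* (chr8:43306960-43307259, minus strand) holds a match to the octamer ATGCAAAT on the opposite strand, printed as its reverse complement in capitals at -186 to -179. That of *Mesp1* (chr7:79793541-79793840, minus strand) holds a match to the T-box half-site AGGTGTGA, likewise on the opposite strand, in capitals at 5 to 12. Every motif was searched on both strands.
Nanog: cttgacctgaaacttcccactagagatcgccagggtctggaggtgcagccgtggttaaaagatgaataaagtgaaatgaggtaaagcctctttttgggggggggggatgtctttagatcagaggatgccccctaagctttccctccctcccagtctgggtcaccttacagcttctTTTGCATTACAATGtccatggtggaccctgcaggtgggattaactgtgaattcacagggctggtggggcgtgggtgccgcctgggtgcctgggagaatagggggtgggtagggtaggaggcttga
Zfp42: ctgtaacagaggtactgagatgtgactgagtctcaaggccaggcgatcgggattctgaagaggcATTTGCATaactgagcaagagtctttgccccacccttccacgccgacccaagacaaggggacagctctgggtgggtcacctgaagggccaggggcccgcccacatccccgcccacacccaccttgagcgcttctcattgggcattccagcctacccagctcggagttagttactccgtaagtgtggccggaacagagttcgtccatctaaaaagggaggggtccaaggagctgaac
Mesp1: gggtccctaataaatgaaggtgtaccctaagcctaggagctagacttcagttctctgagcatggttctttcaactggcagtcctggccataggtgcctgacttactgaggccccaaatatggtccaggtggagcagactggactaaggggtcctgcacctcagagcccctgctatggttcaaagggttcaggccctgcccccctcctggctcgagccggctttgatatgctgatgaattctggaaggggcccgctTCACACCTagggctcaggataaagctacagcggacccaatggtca
Over all 32851 promoter windows of the table the octamer occurred in 1.74%, the T-box sequence in 1.28% and the composite site in 2 windows (0.00609%). These promoters were picked for their matches and are not typical of their lists. The octamer was in 1 of 9 windows of naive factors and 3 of 15 of streak genes, and the T-box sequence in 1 of 15 of streak genes. A match is a description of these letters, not of a bound site, and only 78.5% of the genes tested had a window in the table, too few for a comparison of promoter composition between groups.

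*Nanog* (chr6:122707489-122714633), a homeobox factor of the naive state, had 267 and 269 TPM in ESC and 31.5 and 37.2 TPM in MES, a 9.04-fold fall (log2 fold change -3.18, standard error 0.16, adjusted p = 3.05e-07). *Zfp42* (Rex1, chr8:43295063-43306980), a zinc finger protein used as a marker of naive ESCs, had 631 and 609.8 TPM in ESC and 7.80 and 6.65 TPM in MES and fell 99.2-fold. *Pou5f1* (chr17:35506018-35510772), the POU factor without which the pluripotent state is not kept, had 829 and 862 TPM in ESC and 62.4 and 83.1 TPM in MES and fell 13.5-fold (log2 fold change -3.75, standard error 0.24, adjusted p = 1e-06). *Sox2*, its partner, had 483 and 445 TPM in ESC and 15.8 and 27.5 TPM in MES and fell 24.9-fold. At all 4 genes both MES libraries lay below both ESC libraries, yet *Pou5f1* and *Nanog* kept more than 30 TPM in each MES library. Later libraries of the series had 9.72 and 5.29 TPM of *Pou5f1* in CP and 3.33 and 1.499 TPM in CM.

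Other naive factors fell as well. *Gbx2*, a homeobox factor downstream of LIF, had 138 and 144 TPM in ESC and 1.44 and 1.72 TPM in MES and fell 102.2-fold. *Nr0b1* (Dax1), an orphan nuclear receptor, had 149 and 149 TPM in ESC and 0 and 0.346 TPM in MES and fell 937-fold by counts (95% interval 320.3 to 4546). *Nr5a2*, the nuclear receptor that activates *Pou5f1*, had 45.7 and 44.98 TPM in ESC and 0.533 and 0.742 TPM in MES and fell 81.8-fold. The level of these 3 genes in MES was under 2 TPM. *Tfcp2l1* fell 41.0-fold to 2.89 and 2.61 TPM, and *Prdm14*, which represses DNA methyltransferase genes in naive cells, fell 11.6-fold from 18.1 and 19.9 TPM to 2.70 and 1.06 TPM. The Krüppel-like factors of the network fell by different amounts, *Klf2* 40.2-fold from 229 and 223 TPM to 6.13 and 6.88 TPM and *Klf5* 8.27-fold from 154 and 176 TPM to 23.9 and 22.2 TPM.

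Messages that mark ESCs were among the abundant ones that fell. *Dppa5a* (Esg1), a KH-domain protein, had 3849 and 3830.3 TPM in ESC and 49.4 and 30.3 TPM in MES, a 111-fold fall and the largest loss in TPM of any called gene. *Utf1*, a chromatin protein of undifferentiated cells, had 784 and 754 TPM in ESC and 9.05 and 24.6 TPM in MES and fell 52.99-fold. *Tdgf1* (Cripto), the co-receptor of Nodal, had 810.2 and 815 TPM in ESC and 89.5 and 128 TPM in MES and fell 8.69-fold. *L1td1*, an RNA-binding protein, had 534 and 565 TPM in ESC and 26.5 and 34.7 TPM in MES and fell 20.8-fold. *Fbxo15*, an F-box protein long used as a reporter of the ESC state, had 197 and 199.9 TPM in ESC and 0.624 and 0.496 TPM in MES and fell 405-fold (log2 fold change -8.66, standard error 0.27, adjusted p = 1.76e-08). *Dppa4* and *Dppa2*, which act together at chromatin, fell 66.3-fold and 112-fold, and *Gdf3*, a ligand of the TGF-beta family, fell 89.1-fold from 149 and 152 TPM to 1.82 and 2.06 TPM.

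**Figure D2:**
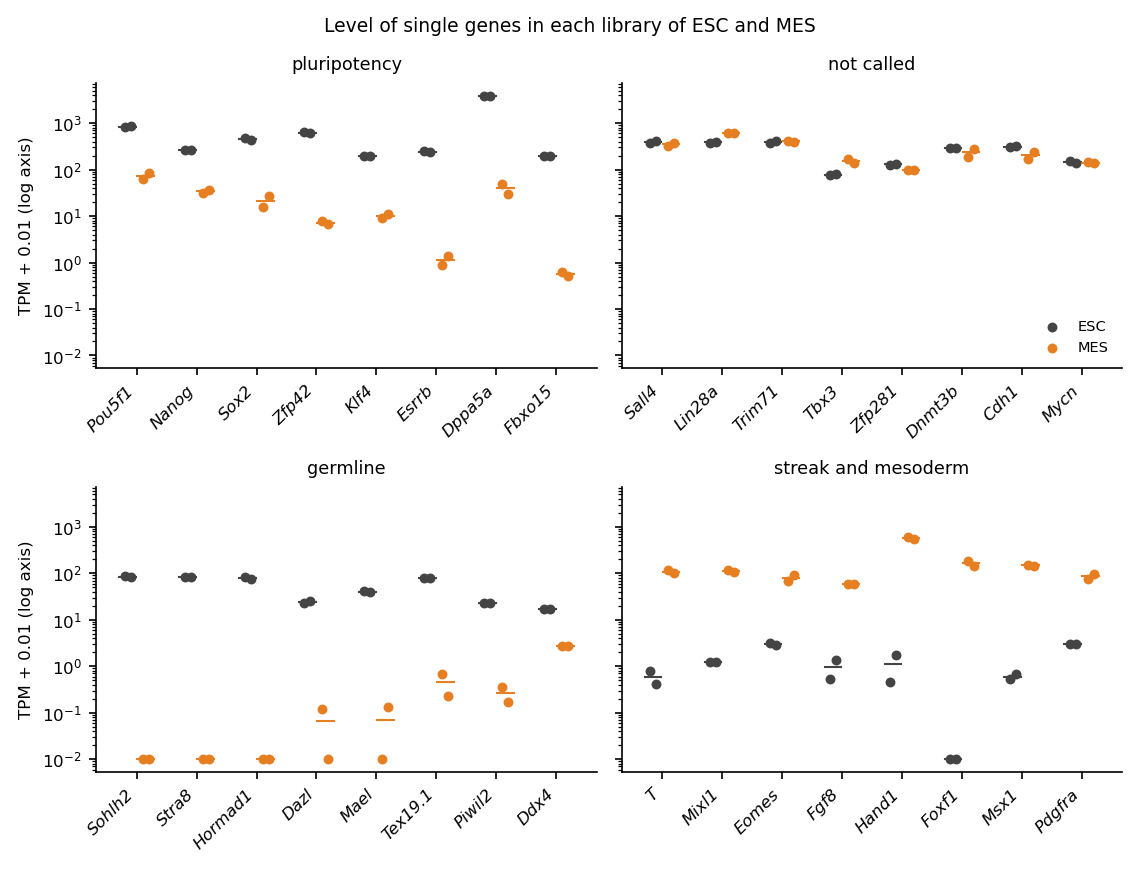
TPM + 0.01 of single genes in each library of ESC (grey) and MES (orange) on a log axis, with a bar at the mean of 2 libraries, in 4 panels of pluripotency genes, genes not called, germline genes, and streak and mesoderm genes. *Dppa5a* sits at 3849 and 3830.3 TPM in ESC and 49.4 and 30.3 TPM in MES, *Sall4* overlaps between the stages, *Sohlh2*, *Stra8* and *Hormad1* sit at 0 in MES, and *Hand1* stands at 613 and 544 TPM in MES.

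The messages of several genes commonly counted with pluripotency remained high. *Sall4*, a zinc finger factor, had 369 and 403 TPM in ESC and 324 and 379 TPM in MES, with ranges that overlapped between the stages. *Lin28a*, the RNA-binding protein that blocks maturation of let-7, had 376 and 402 TPM in ESC and 615 and 610.2 TPM in MES, and *Trim71*, a let-7 target that represses translation, had 379 and 411 TPM in ESC and 417 and 394 TPM in MES. *Zfp281* had 127 and 131 TPM in ESC and 96.2 and 97.1 TPM in MES. None of these 4 passed a fold of 2, although by adjusted p alone *Zfp281* (log2 fold change -0.63, adjusted p = 0.000162) and *Sall4* (-0.35, adjusted p = 0.0217) were lower and *Lin28a* was higher (0.44, adjusted p = 0.0446). *Tbx3*, a T-box factor of the naive list, was higher in both MES libraries, at 78.2 and 78.8 TPM in ESC and 168 and 139.5 TPM in MES, but its fitted fold stayed under 2 (log2 fold change 0.76, adjusted p = 0.00171).

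The receptors of LIF were not called, while targets of its effector STAT3 fell. *Lifr*, the LIF receptor, had 80.3 and 87.1 TPM in ESC and 97.2 and 93.6 TPM in MES. *Il6st* (gp130), its signalling partner, had 54.7 and 54.9 TPM in ESC and 89.0 and 79.0 TPM in MES. *Socs3*, the feedback inhibitor induced by STAT3, had 127 and 129 TPM in ESC and 15.4 and 14.1 TPM in MES and fell 10.01-fold (log2 fold change -3.32, standard error 0.26, adjusted p = 4.17e-06). *Bcl3* had 51.0 and 53.7 TPM in ESC and 2.54 and 2.19 TPM in MES and fell 25.5-fold, and *Pim1*, a kinase induced by STAT3, fell 3.38-fold. *Stat3* itself fell 2.35-fold, and *Jak2* rose 3.76-fold from 7.65 and 7.10 TPM to 32.1 and 32.1 TPM. Over the list, 5 of 12 genes fell and 1 rose (median log2 fold change -0.36), or 2 rose without ESC replicate 2.

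Formative epiblast genes were mixed, with 2 of 12 higher and 7 lower (median log2 fold change -1.31). *Fgf5*, the usual marker of the post-implantation epiblast, had 1.51 and 2.68 TPM in ESC and 21.9 and 49.1 TPM in MES and rose 14.5-fold. *Otx2*, the head organiser factor of the formative state, had 28.6 and 31.1 TPM in ESC and 15.2 and 40.6 TPM in MES, and it was not called, but without MES replicate 2 it passed as lower (log2 fold change -1.15, adjusted p = 0.0225). *Etv5* and *Etv4*, ETS factors that follow FGF signalling, fell 5.98-fold and 6.27-fold. *Pou3f1* (Oct6) fell 3.60-fold, and *Tead2*, a partner of YAP, rose 2.27-fold from 107 and 112 TPM to 277 and 298 TPM. In this list 11 of 12 genes were higher in MES replicate 2 than in replicate 1, against 47.1% of all genes tested, and 11 of 12 were higher in ESC replicate 2 as well.

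Genes of the germline and of the two-cell-like state were lower in MES, and all but 1 of those tested were called. Of 20 germline genes tested 19 fell (median log2 fold change -5.46, or -5.14 with genes without a count set at their bound), and the remaining gene, *Rhox9*, had 0.723 and 0.523 TPM in ESC and 0.168 and 0.0837 TPM in MES. All 20 had a negative log2 fold change. *Rhox9* was called lower under DESeq2 (log2 fold change -2.58) and in a fit with a replicate block (-2.46). Among genes with an average of at least 2 log2 CPM, the 12 largest falls included several messages of meiosis. *Sohlh2*, a helix-loop-helix factor of germ cells, had 86.8 and 83.5 TPM in ESC and 0 and 0 TPM in MES and fell at least 701-fold. *Stra8*, which starts meiosis in response to retinoic acid, had 84.1 and 82.7 TPM in ESC and 0 and 0 TPM in MES and fell at least 524-fold. *Hormad1*, a protein of the meiotic chromosome axis, had 85.5 and 75.2 TPM in ESC and 0 and 0 TPM in MES and fell at least 484-fold. All 3 genes were above 50 TPM in both ESC libraries and had no count in MES. *Mymx*, known as a fusion protein of muscle, also went to no count, from 152 and 148 TPM in ESC to 0 and 0 TPM in MES. So did *Nlrp4f*, an oocyte NLR gene, from a lower level of 30.8 and 30.2 TPM in ESC to 0 and 0 TPM in MES.

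The piRNA and germ plasm genes followed. *Dazl*, the germ cell RNA-binding protein, fell 490.0-fold by counts (95% interval 135 to 4051) from 23.5 and 25.6 TPM. *Mael* fell 726-fold by counts (95% interval 129.9 to 28709) from 41.2 and 38.9 TPM. *Piwil2*, a PIWI protein, had 22.7 and 22.8 TPM in ESC and 0.357 and 0.158 TPM in MES and fell 101-fold. *Tex19.1*, which restrains retrotransposons in germ cells, had 80.3 and 80.9 TPM in ESC and 0.672 and 0.223 TPM in MES and fell 203-fold, whereas *Ddx4* (Vasa) kept 2.71 and 2.70 TPM and fell 7.36-fold. *Stag3*, a cohesin subunit of meiosis, kept 5.56 and 6.07 TPM, and *Rec8*, another, kept 2.21 and 3.41 TPM. Testis copies of widely used genes went the same way. *Rpl39l*, a copy of a ribosomal protein gene used in the testis, had 152 and 162 TPM in ESC and 0 and 0.251 TPM in MES. *Rpl10l*, another, had 201 and 193 TPM in ESC and 0.205 and 0.204 TPM in MES. Of 79 cytosolic ribosomal protein genes tested these were the only 2 called. *Psma8*, the proteasome subunit of spermatocytes, had 33.9 and 33.6 TPM in ESC and 0.252 and 0.0835 TPM in MES and fell 219.9-fold, and *Cox7b2*, a testis subunit of cytochrome oxidase, had 17.6 and 16.1 TPM in ESC and 0 and 0 TPM in MES and fell at least 31.8-fold. Reads of such copies can be shared with their parent genes, so their levels are uncertain.

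Genes of the two-cell-like state, which a small share of cells in an ESC culture enters at any time, were low in ESC and lower in MES. All 11 genes tested of 17 listed fell (median log2 fold change -6.57, or -4.62 with genes without a count set at their bound), and their sum was 32.7 and 34.5 TPM in ESC and 1.11 and 0.648 TPM in MES. In CP the sum was 0 and 0 TPM, and in CM it was 0.952 and 0.228 TPM. These genes therefore passed the low-count filter through ESC, so the filter largely fixed their direction in advance. With a filter of 1 CPM in both libraries of a stage 7 were called lower. *Zscan4d*, a marker of that state, had 4.75 and 5.16 TPM in ESC and 0 and 0 TPM in MES and fell at least 39.2-fold. *Tmem92* had 0.987 and 1.28 TPM in ESC and 0 and 0 TPM in MES and fell at least 8.596-fold. The *Zscan4* and *Usp17l* genes are near-identical copies whose reads may be split between them, so that the sum is better grounded than any single value.

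A run of zinc finger genes on chromosome 4 fell together, and was chosen after its values were seen. Between chr4:145510759-147848366 (GRCm38) 18 *Zfp*-named genes were tested, and 17 of them fell, while *Zfp933*, with 7.12 and 7.84 TPM in ESC and 16.7 and 16.3 TPM in MES, was not called. Their median log2 fold change was -4.83, and their summed level was 2394 and 2264 TPM in ESC and 221 and 222 TPM in MES. *Zfp981* had 262 and 252 TPM in ESC and 0.927 and 0.790 TPM in MES and fell 343-fold (log2 fold change -8.42, standard error 0.19, adjusted p = 6.59e-09). *Zfp978* had 339 and 313 TPM in ESC and 3.42 and 3.56 TPM in MES and fell 107-fold. These genes too are close copies of each other. Of all 371 *Zfp*-named genes tested 46 rose and 54 fell (median log2 fold change 0.02), and outside chromosome 4 the number that fell was 36 of 343. *Zfp711*, on the X chromosome, went against the run and rose 68.9-fold from 0.910 and 0.739 TPM to 66.9 and 65.3 TPM. *Trim28* (KAP1), the corepressor on which many such zinc finger proteins act, fell 2.37-fold from 1337 and 1398 TPM to 652 and 686 TPM.

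The programme of the primitive streak was gained. Of 16 streak and nascent mesoderm genes tested 14 rose and the other 2 were not called (median log2 fold change 5.67), and their summed TPM was 15.1 and 12.9 TPM in ESC and 694 and 694 TPM in MES. *T* (brachyury, chr17:8434423-8442496), the T-box factor of the streak, had 0.777 and 0.402 TPM in ESC and 116 and 101.98 TPM in MES and rose 157-fold (log2 fold change 7.29, standard error 0.68, adjusted p = 1.43e-05). *Eomes*, the T-box factor that specifies cardiac mesoderm and endoderm, had 3.16 and 2.86 TPM in ESC and 69.5 and 90.6 TPM in MES and rose 22.9-fold. *Mixl1*, a homeobox factor of the streak, had 1.25 and 1.22 TPM in ESC and 116 and 109.5 TPM in MES and rose 78.4-fold. Each was above 50 TPM in both MES libraries and under 4 TPM in both ESC libraries. *Mesp1*, the helix-loop-helix factor of the earliest cardiac mesoderm whose promoter is printed above, had 0.141 and 0 TPM in ESC and 34.0 and 18.5 TPM in MES and rose 335-fold by counts (95% interval 59.7 to 13274), and its paralogue *Mesp2* had 1.85 and 1.72 TPM in ESC and 2.16 and 3.32 TPM in MES and was not called.

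Genes of the anterior and the posterior streak were both present. *Gsc* (goosecoid), of the anterior streak, had 9.09 and 12.7 TPM in MES and rose 30.7-fold. *Lhx1*, of the anterior streak and the node, had 38.7 and 79.9 TPM in MES and rose 275-fold. *Cdx2*, a posterior factor, had 0.796 and 0.658 TPM in ESC and 69.8 and 56.5 TPM in MES and rose 74.2-fold. *Sp5*, a direct Wnt target, rose 68.0-fold, and *Wnt3*, the ligand needed for the streak to form, had 2.05 and 1.03 TPM in ESC and 59.8 and 52.0 TPM in MES and rose 31.2-fold. *Evx1*, of the proximal and posterior streak, rose 1327-fold by counts (95% interval 238 to 52435) to 50.2 and 41.9 TPM. *Msgn1*, of presomitic mesoderm, rose 62.8-fold by counts (95% interval 10.9 to 2522) to 12.6 and 7.82 TPM. In CP *T* was at 12.3 and 3.64 TPM and *Mixl1* at 3.05 and 1.70 TPM.

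Regulators of lateral and cardiac mesoderm were gained with few exceptions. Of 26 tested 25 rose and 1 fell (median log2 fold change 4.68). *Hand1*, of extraembryonic and lateral mesoderm and the left ventricle, had 0.450 and 1.77 TPM in ESC and 613 and 544 TPM in MES, a 451-fold rise (log2 fold change 8.82, standard error 0.43, adjusted p = 1.91e-07), and was the most abundant transcription factor of the list in MES. *Foxf1* (chr8:121084386-121088144), of lateral and splanchnic mesoderm, had 0 and 0 TPM in ESC and 186 and 147 TPM in MES and rose at least 1343-fold. *Msx1*, a homeobox factor induced by BMP, had 152 and 145 TPM in MES and rose 215-fold, and its paralogue *Msx2* had 110.5 and 86.7 TPM and rose 189-fold. *Pdgfra*, the receptor that marks early mesoderm, had 2.98 and 3.02 TPM in ESC and 77.2 and 94.5 TPM in MES and rose 24.7-fold. *Tbx20* had 0.180 and 0.186 TPM in ESC and 118 and 110.1 TPM in MES and rose 534-fold. The single gene that fell was *Wt1*, the Wilms tumour factor of epicardium and kidney, at 23.2 and 24.2 TPM in ESC and 1.35 and 1.35 TPM in MES, a 20.3-fold fall.

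Factors used later in the heart were present at low levels. *Isl1*, of the second heart field, had 0.227 and 0.282 TPM in ESC and 14.98 and 21.9 TPM in MES and rose 61.3-fold. *Nkx2-5*, the homeobox factor of cardiac progenitors, had 0 and 0.216 TPM in ESC and 3.78 and 3.52 TPM in MES and rose 31.4-fold by counts (95% interval 8.32 to 265), with 8.40 and 10.4 TPM in CP, and was not called without ESC replicate 1 (adjusted p = 0.0603). *Tbx5*, of the first heart field, had 0 and 0 TPM in ESC and 2.06 and 1.96 TPM in MES and rose at least 31.4-fold. *Myocd* (myocardin) had 0.0280 and 0 TPM in ESC and 3.95 and 4.99 TPM in MES and rose 288-fold by counts (95% interval 51.2 to 11413). *Hand2* had 0 and 0.0791 TPM in ESC and 31.996 and 36.1 TPM in MES and rose 802-fold by counts (95% interval 144 to 31717). In both MES libraries the level of *Hand1* in TPM exceeded that of *Hand2*, and those of *Tbx5* and *Nkx2-5* stayed under 4 TPM.

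Sarcomere genes rose more often than they fell, with 9 of 19 higher and 3 lower, while their median stayed near 0 (median log2 fold change 0.13). *Tnnc1*, the slow and cardiac troponin C, had 2.07 and 1.07 TPM in ESC and 73.3 and 57.8 TPM in MES and rose 35.5-fold. *Actc1*, cardiac actin, had 3.34 and 4.48 TPM in ESC and 39.8 and 29.2 TPM in MES and rose 7.64-fold. *Ttn* (titin) went down from 16.5 and 16.6 TPM to 0.389 and 0.696 TPM, a 35.4-fold fall, and *Actn2* fell 3.71-fold. *Nppa* and *Pln*, expressed in beating myocardium, had 0 counts in all 4 libraries. The actin-binding genes of smooth muscle rose, *Tagln* 15.2-fold from 20.6 and 19.4 TPM to 391.98 and 308 TPM and *Acta2* 9.40-fold from 30.7 and 36.7 TPM to 305 and 431 TPM. Of the smooth muscle and fibroblast list 10 of 14 rose and the other 4 were not called (median log2 fold change 3.58, or 2.78 with genes without a count set at their bound).

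The haemangiogenic genes rose with the mesoderm. Of 17 blood factors and globins 15 rose and 2 were not called (median log2 fold change 5.23, or 4.93 with genes without a count set at their bound). *Tal1*, at the origin of blood and vessels, had 51.0 and 52.1 TPM in MES and rose 40.0-fold, and its partner *Lmo2* had 39.4 and 41.9 TPM and rose 37.4-fold. *Runx1*, needed for definitive blood, had 1.09 and 1.05 TPM in ESC and 38.9 and 35.6 TPM in MES and rose 30.0-fold. *Gata1*, of red cells and megakaryocytes, had 0.295 and 0.763 TPM in ESC and 16.2 and 21.7 TPM in MES and rose 30.6-fold. *Hbb-bh1*, an embryonic beta-like globin of primitive red cells, had 0 and 0.303 TPM in ESC and 157 and 297 TPM in MES and rose 1395-fold by counts (95% interval 249.9 to 55123), and the alpha-like *Hba-x* rose 157-fold by counts (95% interval 27.8 to 6244). Both globins were higher in MES replicate 2, and *Hbb-bh1* stood at 2768 and 2914 TPM in CP. *Myb*, of definitive progenitors, had 6.001 and 6.35 TPM in ESC and 7.62 and 7.84 TPM in MES.

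Among endothelial genes 10 of 17 rose and 1 fell (median log2 fold change 2.58). *Kdr* (Flk1), the VEGF receptor of the first vascular and cardiac precursors, had 0.179 and 0.412 TPM in ESC and 95.4 and 89.8 TPM in MES and rose 270.4-fold. *Etv2*, the ETS factor that starts the vascular and blood programme, had 1.54 and 1.42 TPM in ESC and 45.4 and 35.6 TPM in MES and rose 23.3-fold. *Fli1*, another ETS factor, had 0.0516 and 0.0533 TPM in ESC and 34.5 and 38.7 TPM in MES and rose 639-fold by counts (95% interval 177 to 5284). *Cdh5* (VE-cadherin), which marks formed endothelium, reached 7.68 and 9.27 TPM and rose 40.9-fold. *Pecam1* (CD31), which ESCs express as well, fell 2.81-fold from 43.2 and 47.0 TPM to 17.2 and 19.9 TPM. *Emcn*, of mature vessels, had 0 and 0 TPM in ESC and 0.0387 and 0.0385 TPM in MES.

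Genes of definitive endoderm rose alongside, 9 of 10 with the other not called (median log2 fold change 4.35). *Sox17* had 0.754 and 0.662 TPM in ESC and 13.3 and 24.5 TPM in MES and rose 22.8-fold. *Foxa2*, of endoderm and the axial midline, had 1.14 and 1.02 TPM in ESC and 17.9 and 28.5 TPM in MES and rose 18.4-fold. *Cer1*, a secreted inhibitor of Nodal, BMP and Wnt, had 0 and 0 TPM in ESC and 19.9 and 83.3 TPM in MES and rose at least 300.1-fold. *Cxcr4*, a chemokine receptor of both endoderm and mesoderm, had 0.896 and 1.85 TPM in ESC and 171 and 178 TPM in MES and rose 109-fold. *Trh*, also listed with endoderm, had 161 and 156 TPM in ESC and 106 and 314 TPM in MES. The MES libraries differed here, since 9 of the 10 genes were higher in replicate 2 than in replicate 1, with a median log2 ratio of 0.52, while 3 of 10 were higher in ESC replicate 2. The visceral endoderm list was split, with 7 of 17 higher and 3 lower (median log2 fold change 2.01, or 0.83 with genes without a count set at their bound), and 12 of its 17 genes were higher in MES replicate 2. *Ttr* (transthyretin) had 0 and 0 TPM in ESC and 14.5 and 24.9 TPM in MES and rose at least 78.2-fold, *Afp* rose 183-fold by counts (95% interval 32.5 to 7278) to 2.99 and 7.86 TPM, and *Cubn*, of the receptor of yolk sac uptake, fell 3.11-fold. The part of the MES replicate difference in these values was not tested.

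Neural and trophoblast genes moved in both directions. Of 14 neural genes 4 rose and 4 fell (median log2 fold change -0.29), with log2 fold changes from -7.90 to 3.69. Summed over the 19 neural genes listed, the level was 139.6 and 140.5 TPM in ESC and 105.6 and 92.4 TPM in MES. The neural genes named next are among those that fell. *Sox1*, the earliest neural plate factor, had 19.73 and 17.9 TPM in ESC and 0.0434 and 0.129 TPM in MES and fell 238-fold. *Neurod1* had 28.2 and 29.8 TPM in ESC and 0.0768 and 0.305 TPM in MES and fell 168-fold, and *Pax6* fell 40.7-fold from under 2 TPM. Of 10 trophoblast genes 2 rose and 3 fell (median log2 fold change -0.30), with log2 fold changes from -3.90 to 6.28. The called genes of this list that are named next are those that rose. *Gata3*, which mesoderm expresses too, had 0.769 and 0.514 TPM in ESC and 28.9 and 23.9 TPM in MES and rose 35.2-fold, and *Plac1*, an X-linked placental gene, had 0.258 and 0.3999 TPM in ESC and 35.4 and 26.0 TPM in MES and rose 77.6-fold. *Elf5*, which defines trophoblast stem cells, had 0 and 0 TPM in ESC and 0.0357 and 0.0709 TPM in MES.

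**Figure D3:**
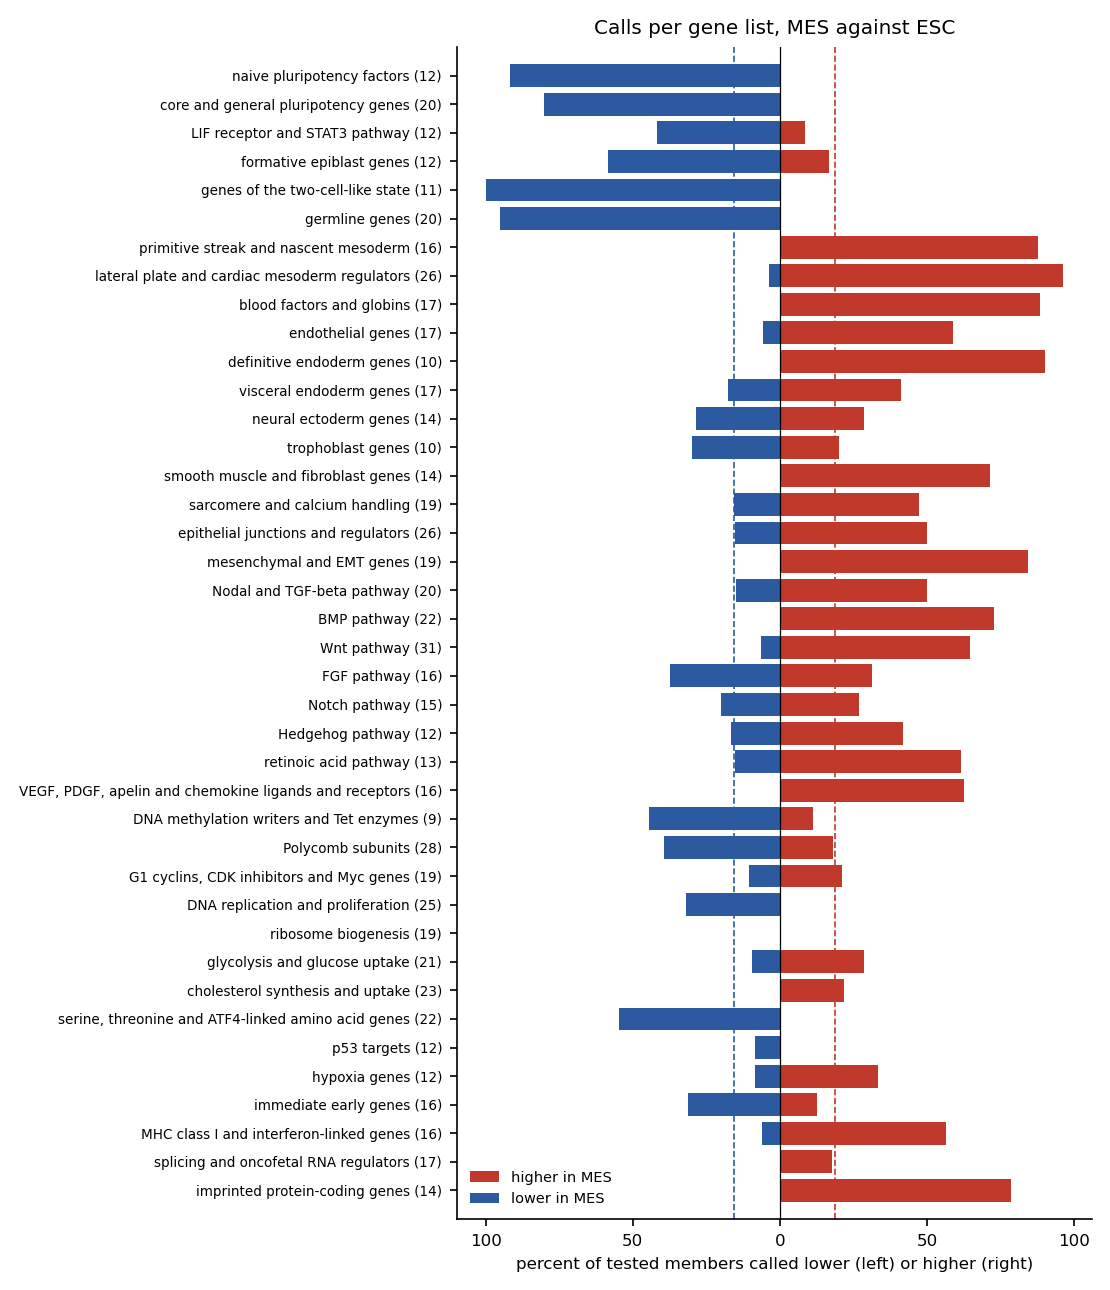
Percentage of the tested members of each gene list called higher (right, red) or lower (left, blue) in MES, with the number tested in brackets and dashed lines at the background of 18.7% higher and 15.6% lower. The pluripotency, two-cell-like and germline lists extend to the left, the mesoderm, blood, mesenchymal, BMP and imprinted lists to the right, and ribosome biogenesis has no bar.

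Families of transcription factors were then counted whole. All 6 Gata factors rose (median log2 fold change 4.69), among them *Gata4*, at 4.33 and 3.81 TPM in ESC and 106 and 99.9 TPM in MES, *Gata6*, at 3.79 and 2.74 TPM in ESC and 36.4 and 44.2 TPM in MES, and *Gata2*, at 0.433 and 0.276 TPM in ESC and 25.3 and 22.3 TPM in MES. Of 12 T-box genes 8 rose. Of 16 Sox factors 7 rose and 5 fell, with *Sox2*, *Sox15* and *Sox1* lost and *Sox17*, *Sox9* and *Sox11* gained. *Sox15*, a factor of ESCs that can bind with Oct4, had 26.7 and 27.4 TPM in ESC and 2.68 and 2.90 TPM in MES and fell 11.1-fold, and *Sox9*, of cartilage and endoderm, had 0.305 and 0.225 TPM in ESC and 16.8 and 18.5 TPM in MES and rose 56.5-fold. Of 16 Krüppel-like factors 4 rose and 6 fell. *Klf9* joined the naive factors with an 8.38-fold fall, from 181 and 185 TPM to 23.7 and 26.9 TPM, whereas *Klf6* rose 2.48-fold to 286 and 274 TPM and *Klf1*, of red cells, rose 7.63-fold. The Fox family divided likewise into 15 of 35 higher and 7 lower. *Foxp1* fell 3.09-fold, *Foxd3*, a factor of ESCs and later of neural crest, fell 14.1-fold from 23.5 and 25.7 TPM to 0.721 and 3.32 TPM, and *Foxj2* rose 3.74-fold.

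Hox genes, which give cells their position along the body axis, were gained unevenly. Of 33 tested 23 rose and 5 fell (median log2 fold change 3.48), the latter count being 2 or 3 when any 1 library of ESC or MES was left out. The cluster on chromosome 11 carried most of the level, with 8 of 10 *Hoxb* genes higher and a sum of 10.7 and 13.5 TPM in ESC and 140.1 and 136 TPM in MES. *Hoxb6* had 0 and 0.0947 TPM in ESC and 43.1 and 40.4 TPM in MES and rose 822-fold by counts (95% interval 147 to 32503), and *Hoxb2* had 0.619 and 0.906 TPM in ESC and 44.1 and 35.1 TPM in MES and rose 44.7-fold. The *Hoxd* cluster on chromosome 2 summed to 27.6 and 26.5 TPM in MES with 5 of 7 genes higher, the *Hoxc* cluster on chromosome 15 to 11.4 and 18.2 TPM with 6 of 8 higher, and the *Hoxa* cluster on chromosome 6 to 24.0 and 29.9 TPM with 4 of 8 higher. Paralogues 1 to 9 together went from 23.4 and 28.1 TPM to 192 and 198 TPM, and paralogues 10 to 13 from 9.39 and 10.98 TPM to 11.6 and 12.2 TPM. *Hoxb13*, at the end of its cluster, had 2.45 and 3.88 TPM in ESC and 0 and 0 TPM in MES and fell at least 24.2-fold, and *Hoxa3* fell 10.8-fold.

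Epithelial genes rose more often than they fell. Of 26 epithelial genes 13 rose and 4 fell (median log2 fold change 0.92), or 2 fell without ESC replicate 1 or without MES replicate 1, with a sum of 1054 and 1085 TPM in ESC and 5085 and 4909 TPM in MES. In MES most of that sum was simple keratin. *Krt8* (chr15:101996698-102004482) had 15.9 and 13.96 TPM in ESC and 1699 and 1533 TPM in MES and rose 93.5-fold (log2 fold change 6.55, standard error 0.15, adjusted p = 6.98e-09). Its filament partner *Krt18* had 22.7 and 17.99 TPM in ESC and 1720.0 and 1615 TPM in MES and rose 70.8-fold, and *Krt19* rose 81.8-fold to 391 and 328 TPM. The promoter of *Krt8* (chr15:102004293-102004592, minus strand, RefSeq) is printed because the gene rose with the Gata factors, and it holds a match to AGATAAG on its own strand at -239 to -233, in capitals, a sequence found in 3.04% of all windows.
Krt8: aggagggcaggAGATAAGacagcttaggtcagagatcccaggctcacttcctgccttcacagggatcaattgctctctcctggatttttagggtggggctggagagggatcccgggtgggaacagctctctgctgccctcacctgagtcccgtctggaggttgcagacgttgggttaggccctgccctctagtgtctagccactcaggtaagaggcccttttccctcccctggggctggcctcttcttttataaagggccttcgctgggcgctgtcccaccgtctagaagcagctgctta
*Dsp* (desmoplakin), a desmosome protein that anchors these filaments, had 9.80 and 10.5 TPM in ESC and 194 and 180.2 TPM in MES and rose 15.9-fold, and *Cldn6*, a tight junction protein of early epithelia, had 20.1 and 22.1 TPM in ESC and 167 and 217 TPM in MES and rose 7.84-fold. *Cdh1* (E-cadherin) had 308 and 315 TPM in ESC and 173 and 235 TPM in MES and was not called, but passed as lower without MES replicate 2 (log2 fold change -1.02, adjusted p = 0.000587). *Epcam* fell 2.23-fold from 128 and 134 TPM to 63.1 and 73.2 TPM.

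Mesenchymal genes rose in 16 of 19 cases and the other 3 were not called (median log2 fold change 2.51). *Snai1*, the zinc finger repressor of E-cadherin in the streak, had 2.89 and 3.21 TPM in ESC and 43.7 and 43.4 TPM in MES and rose 12.3-fold. *Snai2* had 0.890 and 2.02 TPM in ESC and 39.0 and 54.6 TPM in MES and rose 27.6-fold. *Cdh2* (N-cadherin) had 4.996 and 4.61 TPM in ESC and 109 and 112 TPM in MES and rose 19.9-fold, and *Cdh11*, a cadherin of mesenchyme, had 0.121 and 0.146 TPM in ESC and 117 and 103 TPM in MES and rose 701-fold (log2 fold change 9.45, standard error 0.18, adjusted p = 5.63e-09). *Twist2* had 0 and 0 TPM in ESC and 29.1 and 27.4 TPM in MES and rose at least 299.8-fold. *Cd44*, the hyaluronan receptor, had 0.611 and 0.467 TPM in ESC and 97.1 and 91.5 TPM in MES and rose 150.2-fold. *Vim* (vimentin), already at 213 and 241 TPM in ESC, rose 2.64-fold, and *Fn1* (fibronectin), at 323 and 331 TPM in ESC, rose 2.62-fold. MES thus carried keratin, E-cadherin and N-cadherin messages in the same libraries, which in bulk RNA does not say that 1 cell held all of them.

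Genes of the extracellular matrix rose widely. Of 42 collagen genes tested 26 rose and 6 fell (median log2 fold change 2.12, or 1.99 with genes without a count set at their bound). *Col1a1*, the chain of interstitial collagen I, had 7.13 and 6.83 TPM in ESC and 426 and 401 TPM in MES and rose 51.2-fold. *Col5a1* had 5.09 and 5.58 TPM in ESC and 172 and 145 TPM in MES and rose 25.7-fold. *Col4a1*, of basement membranes, had 35.1 and 35.2 TPM in ESC and 185 and 162 TPM in MES and rose 4.27-fold, while *Col6a5* fell 238-fold by counts (95% interval 65.5 to 1969) from 4.68 and 4.998 TPM. Of 11 laminin chains 7 rose and 1 fell, with *Lama4*, of vessels and mesenchyme, at 0.596 and 0.478 TPM in ESC and 41.9 and 38.1 TPM in MES and *Lama3*, of epithelia, down 6.55-fold. Of 20 integrins 12 rose and 3 fell. *Itga4*, a receptor of fibronectin and VCAM1, rose 46.0-fold to 12.9 and 12.98 TPM, and *Itga6*, a laminin receptor of ESCs, fell 3.74-fold from 117 and 118 TPM to 35.0 and 37.7 TPM. Of 18 Adamts proteases 13 rose and 2 fell (median log2 fold change 2.46), among them *Adamts9*, at 3.08 and 3.44 TPM in ESC and 56.1 and 68.5 TPM in MES.

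Guidance molecules and other cell surface families were also exchanged. Of 21 ephrins and Eph receptors 12 rose and 2 fell, or 1 fell without MES replicate 1. *Efnb1* had 11.7 and 13.95 TPM in ESC and 93.5 and 91.7 TPM in MES and rose 6.25-fold, *Efna1* rose 20.03-fold, and *Epha2*, the abundant receptor of ESCs, had 169 and 171 TPM in ESC and 47.2 and 49.6 TPM in MES and fell 4.07-fold. Of 20 semaphorins 10 rose and 5 fell, *Sema4b* 4.05-fold down from 75.4 and 82.0 TPM and *Sema5a* 25.1-fold up to 18.6 and 19.9 TPM. Of 52 protocadherins 24 rose and 1 fell, led by *Pcdh7*, at 0.221 and 0.175 TPM in ESC and 81.2 and 89.3 TPM in MES, and *Pcdh18*, at 1.58 and 1.52 TPM in ESC and 86.6 and 66.5 TPM in MES. Genes of the clustered protocadherins share exons, so that single values there are uncertain. *Aplnr*, the apelin receptor of migrating mesoderm, had 0 and 0 TPM in ESC and 116 and 117 TPM in MES, and rose at least 1443-fold. Of its ligands, *Apln* rose 14.3-fold and *Apela*, which ESCs make, had 90.8 and 97.6 TPM in ESC and 55.9 and 68.9 TPM in MES.

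*Nodal* and its inhibitor *Lefty1* fell while TGF-beta ligands rose. Of 20 genes 10 rose and 3 fell (median log2 fold change 0.91). *Nodal* had 90.0 and 82.3 TPM in ESC and 28.5 and 26.8 TPM in MES and fell 3.61-fold. *Lefty1*, its secreted inhibitor, had 181 and 175 TPM in ESC and 8.34 and 7.23 TPM in MES and fell 26.5-fold (log2 fold change -4.73, standard error 0.26, adjusted p = 4.59e-07), whereas *Lefty2* had 25.8 and 26.6 TPM in ESC and 21.1 and 22.0 TPM in MES. *Inhbb*, an activin subunit, had 30.9 and 30.0 TPM in ESC and 0.197 and 0.147 TPM in MES and fell 198-fold. Of the TGF-beta ligands, *Tgfb2* had 1.34 and 1.41 TPM in ESC and 90.4 and 88.7 TPM in MES and rose 56.2-fold, and *Tgfb1* had 1.82 and 1.73 TPM in ESC and 53.2 and 51.8 TPM in MES and rose 25.5-fold. *Tgfbr2*, their receptor, rose 7.27-fold to 7.09 and 7.81 TPM. *Smad3* had 11.5 and 11.1 TPM in ESC and 76.4 and 83.1 TPM in MES and rose 6.11-fold, while *Smad2*, the other effector, had 48.3 and 46.5 TPM in ESC and 72.9 and 73.6 TPM in MES. *Foxh1*, the DNA-binding partner of Smads in Nodal responses, rose 2.60-fold from 86.7 and 91.4 TPM to 274 and 261 TPM.

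BMP genes rose at every level of the pathway, 16 of 22 with the other 6 not called (median log2 fold change 2.19). Of the ligands, *Bmp2* had 0.253 and 0.262 TPM in ESC and 96.8 and 91.0 TPM in MES and rose 309-fold. *Bmp4*, which patterns the streak and lateral mesoderm, had 45.9 and 46.0 TPM in ESC and 249 and 219 TPM in MES and rose 4.41-fold. *Bmp5* had 0 and 0 TPM in ESC and 36.3 and 43.9 TPM in MES and rose at least 539-fold, and *Bmp7* rose 8.88-fold to 35.9 and 37.2 TPM. The receptor *Bmpr2* rose 2.59-fold, and *Bmpr1a* had 67.3 and 67.4 TPM in ESC and 134 and 141 TPM in MES and was not called. By adjusted p alone *Bmpr1a* was higher (log2 fold change 0.82, adjusted p = 0.000131), and both limma fits called it higher. Direct targets followed, *Id3* at 15.97 and 18.9 TPM in ESC and 339.7 and 309 TPM in MES (16.1-fold higher) and *Id1* at 42.8 and 46.0 TPM in ESC and 248 and 239 TPM in MES (4.74-fold higher). Inhibitors rose too, with *Smad6* at 8.76 and 6.79 TPM in ESC and 203 and 157 TPM in MES (19.99-fold higher), *Bambi* 7.49-fold and *Nog* (noggin) 10.4-fold higher, and *Chrd* (chordin) at 3.45 and 3.83 TPM in ESC and 4.32 and 6.96 TPM in MES, not called.

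**Figure D4:**
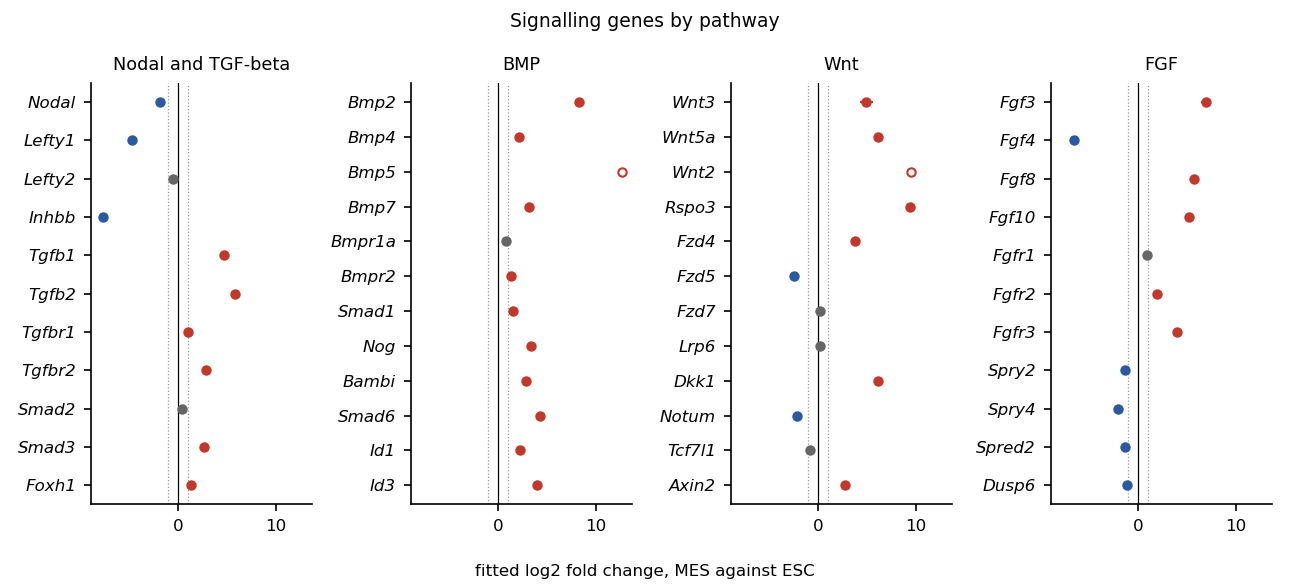
Fitted log2 fold change of MES against ESC for genes of 4 signalling pathways, with bars of 1 standard error, red for genes called higher, blue for lower and grey for not called, and dotted lines at a fold of 2 either way. Open circles mark *Bmp5* and *Wnt2*, which had 0 counts in ESC, so that their position is not a bound, and the Nodal and FGF panels hold both losses such as *Lefty1* and *Fgf4* and gains such as *Tgfb2* and *Fgf3*.

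Of 31 Wnt pathway genes 20 rose and 2 fell (median log2 fold change 1.60). Among ligands, *Wnt5a*, of elongating tissues, had 0.851 and 1.21 TPM in ESC and 84.1 and 80.0 TPM in MES and rose 68.8-fold. *Wnt2* had 0 and 0 TPM in ESC and 8.27 and 7.95 TPM in MES and rose at least 61.1-fold. *Rspo3*, which strengthens Wnt signals, had 0 and 0.241 TPM in ESC and 108 and 95.5 TPM in MES and rose 702-fold. Receptors were exchanged, since *Fzd5* fell 5.61-fold from 97.7 and 104 TPM to 11.5 and 30.6 TPM and *Fzd4* rose 13.7-fold from 4.44 and 5.42 TPM to 85.2 and 70.5 TPM, while *Fzd7* had 133 and 135 TPM in ESC and 160.3 and 196 TPM in MES. *Dkk1*, a secreted inhibitor and a target, had 0.667 and 0.919 TPM in ESC and 62.3 and 63.96 TPM in MES and rose 68.2-fold, and *Axin2*, the feedback target most used as a readout, had 8.56 and 8.41 TPM in ESC and 73.1 and 56.3 TPM in MES and rose 6.60-fold. *Notum*, another inhibitor, fell 4.32-fold. *Lef1*, a transcriptional effector, rose 2.30-fold, and *Tcf7l1* (Tcf3), a repressor of the ESC network, had 47.5 and 57.0 TPM in ESC and 30.7 and 37.9 TPM in MES.

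FGF genes changed ligand, 5 of 16 rising and 6 falling (median log2 fold change 0.03). *Fgf4*, the autocrine ligand of ESCs, had 192 and 185 TPM in ESC and 1.97 and 2.93 TPM in MES and fell 88.8-fold (log2 fold change -6.47, standard error 0.22, adjusted p = 3.13e-08). *Fgf8*, of the streak, had 0.533 and 1.38 TPM in ESC and 59.6 and 59.1 TPM in MES and rose 53.2-fold, *Fgf3* had 0.696 and 0.640 TPM in ESC and 109 and 84.7 TPM in MES and rose 124-fold, and *Fgf10*, of the second heart field and limb, had 1.92 and 1.33 TPM in ESC and 71.0 and 70.2 TPM in MES and rose 37.3-fold. The feedback inhibitors fell, *Spry4* 4.16-fold from 132 and 144 TPM to 37.5 and 39.2 TPM and *Spry2* 2.53-fold, along with *Dusp6*, an ERK phosphatase, 2.10-fold. The receptor *Fgfr1* had 61.4 and 66.2 TPM in ESC and 135 and 145 TPM in MES, and *Fgfr3* rose 16.5-fold to 19.5 and 22.1 TPM. *Fgfr1* stayed under the fold limit (log2 fold change 0.92, adjusted p = 1.19e-05) but was called higher by both limma fits and under scaling by library totals.

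Of the growth factor and chemokine genes 10 of 16 rose and 6 were not called (median log2 fold change 2.01). *Igf2*, an imprinted growth factor of the embryo, had 0.377 and 0.357 TPM in ESC and 97.4 and 116 TPM in MES and rose 248-fold. *Vegfa* had 17.5 and 16.3 TPM in ESC and 86.0 and 88.7 TPM in MES and rose 4.47-fold, so that ligand and receptor *Kdr* were both higher in MES. *Kitl*, the ligand of Kit, rose 17.2-fold to 45.8 and 47.2 TPM, and *Kit* itself had 28.5 and 28.2 TPM in ESC and 39.9 and 42.6 TPM in MES. In the retinoic acid pathway 8 of 13 rose and 2 fell. *Cyp26a1*, the enzyme that breaks retinoic acid down in the streak and tail, had 1.45 and 1.78 TPM in ESC and 184 and 219 TPM in MES and rose 107-fold (log2 fold change 6.74, standard error 0.20, adjusted p = 1.37e-08), far above *Aldh1a2*, the enzyme that makes it, at 1.83 and 3.12 TPM in ESC and 5.28 and 6.26 TPM in MES. The call of *Aldh1a2* as higher was lost without ESC replicate 1 (adjusted p = 0.16), without MES replicate 2 (adjusted p = 0.0976), under DESeq2 (adjusted p = 0.0552), under scaling by relative log expression (log2 fold change 0.95) and under limma on log2(TPM + 1) (log2 fold change 0.98). *Rarg*, a retinoic acid receptor, fell 3.76-fold. Of 15 Notch genes 4 rose and 3 fell (median log2 fold change 0.64), and of 12 Hedgehog genes 5 rose and 2 fell (median log2 fold change 0.90). *Dll1*, a Notch ligand, had 43.2 and 43.8 TPM in ESC and 4.47 and 7.51 TPM in MES and fell 8.43-fold, *Notch4* fell 13.5-fold, and *Hey2*, a target in heart and vessels, rose 20.6-fold to 15.8 and 16.6 TPM. *Smo*, the transducer of Hedgehog signals, rose 3.35-fold from 27.2 and 30.1 TPM to 109.7 and 112 TPM, *Gli3* rose 4.78-fold, and the target *Gli1* fell 4.08-fold.

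Chromatin regulators lost members that are characteristic of ESCs. Of 9 DNA methylation genes 4 fell and 1 rose (median log2 fold change -0.999). *Dnmt3l*, the cofactor of de novo methylation, had 292 and 281 TPM in ESC and 4.91 and 3.14 TPM in MES and fell 82.2-fold (log2 fold change -6.36, standard error 0.21, adjusted p = 2.49e-08). *Tet1*, which oxidises methylcytosine, had 377 and 402 TPM in ESC and 44.2 and 48.9 TPM in MES and fell 9.69-fold, and *Tet2* fell 9.46-fold. *Tet3* rose 3.04-fold from 12.9 and 12.9 TPM to 42.4 and 48.6 TPM. *Dnmt3a* fell 3.96-fold to 25.1 and 30.0 TPM, while *Dnmt3b*, the other de novo enzyme, had 285 and 289 TPM in ESC and 187 and 283 TPM in MES.

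Of 28 Polycomb subunits 5 rose and 11 fell (median log2 fold change -0.27). The catalytic *Ezh2* had 87.7 and 85.1 TPM in ESC and 85.6 and 85.9 TPM in MES and was not called. The accessory subunits of the same complex fell, *Jarid2* 5.59-fold from 296 and 315 TPM to 55.4 and 71.4 TPM and *Mtf2* 2.997-fold from 331 and 331 TPM to 120.5 and 135 TPM. In the canonical form of the other complex *Cbx7*, its chromodomain protein in ESCs, had 114 and 112 TPM in ESC and 12.6 and 14.97 TPM in MES and fell 9.50-fold, *Phc1* fell 7.26-fold from 432 and 439 TPM, and *Cbx2* and *Phc2* rose 2.19-fold and 3.66-fold. *Pcgf5* rose 6.49-fold to 36.8 and 32.3 TPM.

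Proliferation genes were lower by small folds. Of 25 replication and proliferation genes 8 fell (5 without MES replicate 2), and 23 had a negative log2 fold change (median log2 fold change -0.70). *Cdt1*, the licensing factor, had 258 and 262 TPM in ESC and 109 and 123 TPM in MES and fell 2.59-fold. *Mcm2*, of the replicative helicase, had 272 and 272 TPM in ESC and 151 and 143 TPM in MES and fell 2.14-fold, and *Pcna* had 700.3 and 653 TPM in ESC and 491 and 439 TPM in MES. Among G1 regulators 4 of 19 rose and 2 fell (21.1% and 10.5%, against 18.7% and 15.6% of all genes tested). *Ccne1*, the cyclin that is high throughout the cycle of ESCs, had 196 and 209 TPM in ESC and 58.4 and 56.0 TPM in MES and fell 4.09-fold. *Ccnd2* had 5.22 and 6.09 TPM in ESC and 98.8 and 96.0 TPM in MES and rose 14.9-fold, and *Ccnd3* had 56.1 and 61.7 TPM in ESC and 76.8 and 74.1 TPM in MES. *Myc* had 46.9 and 47.6 TPM in ESC and 106 and 99.8 TPM in MES and *Mycn* had 150.1 and 141 TPM in ESC and 148 and 136 TPM in MES, and neither was called. By adjusted p alone *Myc* was higher (log2 fold change 0.92, adjusted p = 0.000106), and both limma fits called it higher. No gene of ribosome biogenesis was called by edgeR's quasi-likelihood test with its fold limit, but 19 of 19 had an unadjusted p under 0.05, all 19 were lower at an adjusted p under 0.05 alone (median log2 fold change -0.63), and DESeq2 called 1 lower, as did edgeR without ESC replicate 2 or without MES replicate 1. *Ncl* (nucleolin) had 506 and 539 TPM in ESC and 393 and 338 TPM in MES, and *Polr1b*, of RNA polymerase I, had 114 and 113 TPM in ESC and 71.1 and 70.2 TPM in MES.

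Metabolic genes changed in a few named places. Of 21 glycolysis genes 6 rose and 2 fell (median log2 fold change 0.15). *Slc2a1* (Glut1), a glucose transporter, had 504 and 526 TPM in ESC and 2392 and 2554 TPM in MES and rose 4.15-fold. *Ldha*, which makes lactate, had 643 and 629 TPM in ESC and 1822 and 2067 TPM in MES and rose 2.64-fold, and *Slc16a3*, a lactate exporter, rose 3.44-fold from 46.7 and 46.6 TPM to 182 and 190.0 TPM. *Ldhb* fell 2.31-fold and *Pdk1*, which holds pyruvate from the mitochondrion, fell 4.62-fold from 162 and 161 TPM to 35.4 and 45.8 TPM. *Gapdh* had 2544 and 2322 TPM in ESC and 2292 and 2342 TPM in MES. Of 23 cholesterol genes 5 rose, 20 were higher at an adjusted p under 0.05 alone, and all 23 had a positive log2 fold change (median log2 fold change 0.63), with *Sc5d* at 21.6 and 21.6 TPM in ESC and 85.2 and 80.1 TPM in MES (3.31-fold higher).

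Amino acid genes moved down. Of 22 genes of serine and threonine metabolism and of the ATF4 response 12 fell and the other 10 were not called (median log2 fold change -1.16). *Tdh*, threonine dehydrogenase, on which mouse ESCs depend for growth, had 307 and 308 TPM in ESC and 1.04 and 2.87 TPM in MES and fell 181-fold (log2 fold change -7.50, standard error 0.25, adjusted p = 2.49e-08). *Slc7a3*, a transporter of cationic amino acids, had 170.5 and 172 TPM in ESC and 12.7 and 18.3 TPM in MES and fell 12.8-fold. *Gldc*, of the glycine cleavage system, had 146 and 153 TPM in ESC and 41.9 and 54.9 TPM in MES and fell 3.58-fold, and *Slc3a2*, a subunit shared by amino acid exchangers, fell 2.67-fold. *Atf4* itself had 158 and 159.9 TPM in ESC and 184 and 133 TPM in MES. Of 79 nuclear genes of the respiratory chain 7 fell and 1 rose, the latter *Cox4i2*, an isoform of oxygen-poor tissue, at 1.37 and 0.472 TPM in ESC and 17.3 and 22.7 TPM in MES. Messages of the mitochondrial genome summed to 23326 and 25253 TPM in ESC and 14079 and 15582 TPM in MES, and 4 of 11 fell, a count that became 0 without ESC replicate 2 or without MES replicate 1. Of 12 hypoxia genes 4 rose and 1 fell, with *P4ha1*, a collagen prolyl hydroxylase, up 4.08-fold from 28.1 and 31.4 TPM to 137 and 144 TPM.

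Imprinted genes rose nearly throughout, 11 of 14 with the other 3 not called (median log2 fold change 2.61), and their summed TPM was 756 and 805 TPM in ESC and 4804 and 4466 TPM in MES. *Peg10*, a retrotransposon-derived gene of placenta, had 424 and 455 TPM in ESC and 3373 and 3097 TPM in MES, the largest gain in TPM of any called gene, and rose 6.37-fold. *Mest*, of mesoderm, had 165 and 193 TPM in ESC and 1777 and 1554 TPM in MES and rose 8.06-fold. *Peg3* had 25.9 and 26.5 TPM in ESC and 742 and 701 TPM in MES and rose 23.8-fold. *Asb4* had 0.641 and 0.567 TPM in ESC and 93.8 and 98.8 TPM in MES and rose 136-fold, whereas *Snrpn* had 92.8 and 91.3 TPM in ESC and 94.2 and 107 TPM in MES and *Impact* had 181 and 181 TPM in ESC and 193 and 186 TPM in MES. *Peg10* lies outside the list and is named for its gain. X-linked genes were called higher in 28.4% of 563 cases and lower in 16.7%, while no autosome exceeded 23.6% higher. *Amot*, an X-linked regulator of YAP, chosen after its values were seen, had 5.55 and 4.96 TPM in ESC and 652 and 676 TPM in MES and rose 109-fold, and *Gpc3*, an X-linked glypican of mesoderm, had 27.4 and 28.4 TPM in ESC and 749 and 751 TPM in MES and rose 23.2-fold.

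Immediate early and antigen presentation genes moved apart. Of 16 immediate early genes 5 fell and 2 rose (median log2 fold change -0.79). *Fos* had 73.5 and 81.2 TPM in ESC and 11.2 and 12.8 TPM in MES and fell 7.44-fold, *Egr1* had 55.2 and 58.4 TPM in ESC and 7.71 and 9.34 TPM in MES and fell 7.71-fold, and *Fosl2* rose 10.3-fold to 34.2 and 30.2 TPM. Such genes are known to respond within minutes to serum. Of 16 class I and interferon-linked genes 9 rose and 1 fell (median log2 fold change 1.17). *B2m*, the light chain of class I, had 20.9 and 18.8 TPM in ESC and 88.0 and 88.2 TPM in MES and rose 3.83-fold, and *H2-K1* had 14.3 and 15.3 TPM in ESC and 73.0 and 65.6 TPM in MES and rose 4.04-fold. *Bst2* fell 2.60-fold, and 2 genes of the list fell without ESC replicate 1 or without MES replicate 2. Of 12 p53 targets only *Bbc3* was called, with a fall of 2.55-fold, and *Trp53* had 294 and 319 TPM in ESC and 194 and 196 TPM in MES.

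Ratios of paired genes summarise these exchanges within each library, where scaling between libraries plays no part. The TPM of *Cdh1* over that of *Cdh2* was 61.6 and 68.4 in ESC and 1.59 and 2.09 in MES. *Tet1* over *Tet3* went from 29.2 and 31.1 to 1.04 and 1.01, and *Cbx7* over *Cbx2* from 4.46 and 4.25 to 0.207 and 0.211. *Fgf4* over *Fgf8* went from 359.7 and 134 to 0.0330 and 0.0496, and *Lefty1* over *Lefty2* from 7.02 and 6.59 to 0.395 and 0.328. In each of these pairs the stages did not overlap, and in all but *Cdh1* and *Tet1* the gene that led in ESC no longer led in MES. *Ccnd3* over *Ccnd2* went from 10.8 and 10.1 to 0.777 and 0.771, and *Hmga1* over *Hmga2*, architectural proteins of embryonic chromatin, from 15.6 and 16.03 to 1.47 and 1.37. *Dnmt3b* over *Dnmt3a* moved the other way, from 3.17 and 2.94 to 7.47 and 9.42. *Lin28a* over *Lin28b* was 11.8 and 11.3 in ESC and 10.004 and 10.2 in MES, and *Ezh2* over *Ezh1* was 6.20 and 6.10 in ESC and 6.82 and 5.19 in MES.

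**Figure D5:**
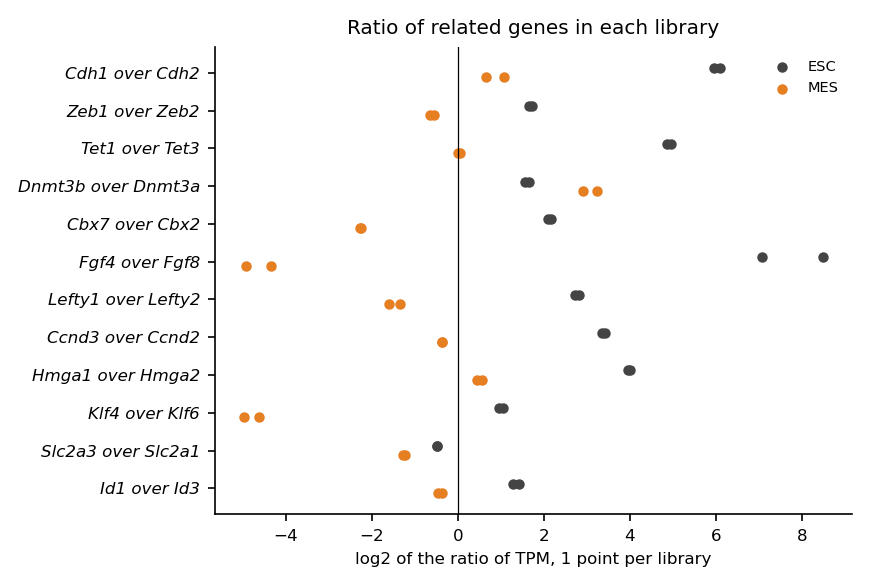
Log2 of the ratio of TPM of 12 pairs of related genes, with 1 point for each library of ESC (grey) and MES (orange) and a line at equal levels. *Fgf4* over *Fgf8* moves the furthest of the 12, from ratios of 359.7 and 134 to 0.0330 and 0.0496, and *Dnmt3b* over *Dnmt3a* is the only pair drawn whose ratio rises.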

How the data were processed

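Total RNA was depleted of ribosomal RNA, sequenced as strand-specific pairs, trimmed by the authors with Trim Galore 0.6.6, aligned to GRCm38 with HISAT2 2.2.1 and assigned to genes with featureCounts 2.0.1. The whole-number counts per gene are deposited without normalization. The deposited TPM values were made by the authors from these counts and gene lengths, and recomputing them gave a largest difference of 4.35e-06 TPM. The genes and lists described were chosen with earlier results of these data known.

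Counts of all 8 libraries (18046063 to 19728777 per library) were fitted by stage with edgeR 4.0.16 in R 4.3.3, after filterByExpr and with trimmed-mean scaling, and MES was compared with ESC by the two-sided quasi-likelihood test. All p-values, including those printed beside single genes, were adjusted by Benjamini and Hochberg over 20071 genes of every biotype, and each comparison has 2 libraries per stage. Standard errors were worked back from the test, as the size of the log2 fold change over the square root of its F statistic. On simulated counts of 19164 genes the fit called 32%, 90%, 98% and 100% of genes changed 2-, 4-, 8- and 16-fold. There were 50 changed genes per fold, drawn from well-counted genes only, with a spread taken from the fit itself. Far fewer genes changed than in the data, and a 2-fold change lies on the fold limit. Of 170 calls in the simulation 10 were at unchanged genes. Alternatives were DESeq2 1.42.0, limma 3.58.1 on log2(TPM + 0.1) and log2(TPM + 1), other scalings, filters and fold limits, a replicate block, fewer stages, and leaving out each library.

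Genes were named by rule: the 12 largest rises and falls among called genes with an average of at least 2 log2 CPM whose stages did not overlap, the 10 largest gains and losses in TPM, from each list up to 5 called genes each way by adjusted p and up to 3 uncalled genes with the highest TPM (any member of lists of at most 20), up to 3 called genes each way from each family, and the pairs. *Amot*, *Axin2*, *Bmp4*, *Bmp7*, *Bmpr2*, *Cox7b2*, *Dazl*, *Ddx4*, *Hand1*, *Isl1*, *Klf9*, *Mael*, *Msx2*, *Myocd*, *Nkx2-5*, *Nog*, *Rec8*, *Smad2*, *Tbx5*, *Tex19.1*, *Wnt2*, *Zfp933* and the run on chromosome 4 were chosen after their values were seen. Gene positions are from GENCODE M21 on GRCm38. Figures and tables were made in Python 3.11.15 with pandas 2.3.3, SciPy 1.17.1 and matplotlib 3.10.9.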

Additional observations from a re-analysis of the deposited data

How the results depend on the processing

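The number of protein-coding genes called higher or lower stayed within 1.5 times of 2860 and 2382 under DESeq2 (2622 and 2365), scaling by library totals (3065 and 2219) or by relative log expression (2726 and 2535), a stricter filter (2746 and 2199), no filter (2933 and 2450), limma on log2(TPM + 0.1) (3353 and 1978), a fit of ESC and MES alone (2792 and 2353) and a fit without the CM libraries (2905 and 2406). Leaving out 1 library at a time gave 2604 to 2984 genes higher and 2161 to 2546 lower, where the lone library of a stage is assumed to vary like the others. Limma on log2(TPM + 1) called 2670 genes higher and 1580 lower, and the reason for the smaller number lower was not tested. With no fold limit 4786 genes were higher and 4855 lower, and with a limit of 4-fold 1593 and 1322. Of 252 named genes that were called 47 lost the call under some alternative, 8 of them (*Aldh1a2*, *Dusp6*, *Epcam*, *Hoxa3*, *Ldhb*, *Mcm2*, *Nkx2-5* and *Stat3*) under one other than the 4-fold limit. Of 45 named genes that were not called 23 gained a call, 7 of them (*Bmpr1a*, *Cdh1*, *Fgfr1*, *Myc*, *Otx2*, *Rhox9* and *Zfp933*) other than by dropping the fold limit. None reversed direction. The replicate numbers do not pair the samples, since deviations of same-numbered libraries correlated by only 0.01 to 0.07, and a fit with the replicate block called 2858 genes higher and 2385 lower, of which 2835 and 2351 were also called without it. At this depth 6665 protein-coding genes were not tested, of which 2686 had a count in ESC or MES.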

Other observations

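Genes outside the programmes above also separated the stages. Of 277 solute carriers 63 rose and 66 fell (median log2 fold change 0.09), and the zinc transporters were among them: *Slc39a8* had 1.17 and 1.26 TPM in ESC and 45.1 and 50.3 TPM in MES and rose 33.8-fold, while *Slc39a14* had 59.8 and 60.4 TPM in ESC and 11.6 and 12.5 TPM in MES and fell 5.79-fold. *Slc29a1*, a nucleoside transporter, had 165 and 175 TPM in ESC and 43.3 and 39.6 TPM in MES and fell 4.73-fold. Among splicing and oncofetal RNA regulators 3 of 17 rose (17.6%, against 18.7% of all genes tested) and 0 fell. *Hmga2* had 17.1 and 16.7 TPM in ESC and 211 and 233 TPM in MES (11.4-fold higher). *Igf2bp2* had 34.9 and 37.2 TPM in ESC and 92.3 and 103 TPM in MES (2.34-fold higher). *Ptbp1*, the splicing repressor of non-neural cells, had 497 and 518 TPM in ESC and 538 and 533 TPM in MES. Of histone genes, *H1f0*, a linker histone of cells that slow their division, had 44.7 and 41.4 TPM in ESC and 209 and 217 TPM in MES and rose 4.27-fold, and *H2bc1*, a histone of germ cells, had 74.0 and 58.1 TPM in ESC and 2.18 and 1.09 TPM in MES and fell 45.1-fold.

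Abundant messages that no list held moved as well. *Ftl1*, ferritin light chain, had 4987 and 5079 TPM in ESC and 2152 and 2173 TPM in MES and fell 2.69-fold. *Hspb1*, a small heat shock protein, had 1381 and 1402 TPM in ESC and 254 and 156 TPM in MES and fell 7.82-fold, and *Hsp90aa1*, the inducible HSP90, fell 2.56-fold. *Scd2*, a fatty acid desaturase, had 325 and 343 TPM in ESC and 1435 and 1314 TPM in MES and rose 3.56-fold. *Prdm6*, known from smooth muscle, had 0.0517 and 0.160 TPM in ESC and 187 and 181 TPM in MES and rose 1429.7-fold, and *Tdo2*, which breaks down tryptophan, had 0 and 0 TPM in ESC and 24.9 and 25.1 TPM in MES and rose at least 324-fold.

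Calls were unevenly spread over abundance. Of 3959 genes with a mean of 1 to 10 TPM over the 4 libraries 30.4% rose and 24.0% fell, against 7.20% and 10.2% of 1598 genes at 100 to 1000 TPM. The MES libraries also differed from each other by group: 0 of 23 cholesterol genes, 0 of 19 ribosome biogenesis genes and 1 of 38 proteasome genes were higher in MES replicate 2 than in replicate 1, against 47.1% of all genes tested.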
